A study of Homo sapiens with 4 samples.

Results

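The mitochondrial ribosomal protein genes described here are the protein-coding genes whose symbol is MRPL or MRPS followed by a number. They number 78 of the 61541 genes counted in each library, with 49 named for the large subunit (MRPL) and 29 named for the small subunit (MRPS). RNA came from H1299, an established human lung carcinoma line, grown in serum-containing medium and treated with phosphate-buffered saline (PBS) or with ginseng nanoparticles. There were 2 polyadenylated RNA libraries per group, and the labels give no dose, exposure time or plant part. Both nanoparticle libraries have control in their titles as well, against their treatment label, which was the one followed. Every library comes from this 1 line, and nothing in the labels says that replicates were separate cultures, so a p-value here measures how these libraries vary, which may be technical variation.

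Mitochondria carry their own ribosome, which translates the few messages of the mitochondrial genome into core subunits of the respiratory chain and ATP synthase. Its large subunit joins amino acids and its small subunit reads the messages. All of its proteins are encoded in the nucleus, made in the cytosol and imported, whereas its rRNAs are transcribed from mitochondrial DNA.

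After treatment, 4 of 48 tested large-subunit genes passed the test as lower in RNA. MRPL41 fell by 12.2%, MRPL36 fell by 10.6%, MRPL51 fell by 8.12% and MRPL15 fell by 8.59%. No small-subunit gene passed the test and no gene of either subunit passed as higher. Over all tested genes 0.83% passed as lower and 1.75% as higher. Most of the other genes lay slightly below their PBS level. The median log2 fold change was -0.043 over the large subunit and -0.044 over the small subunit, against 0.00056 over all tested genes. These calls and medians moved together with transcript length, and none of the 4 genes passed after each library's length trend was removed. With DESeq2, another tool, none of the 76 tested members passed, while 0.57% of all tested genes did.

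Promoter sequence was available in RefSeq (GRCh38.p14) for 69 of the 78 genes, in 85 windows. Stretches of 160 bases, 130 before and 30 from the annotated start, are printed for the genes with the smallest p in each subunit for which sequence was available and, for contrast, for MRPL22, whose log2 fold change was 0.066. They show what the regions around these annotated starts look like. Some genes have more than 1 window, and 1 stretch per gene is printed. Capitals mark matches to any of 3 motifs searched on both strands: CCGGAAG, the core bound by ETS factors such as GABPA; GCGCA followed by any base and GCGC, the core bound by NRF1; and AAGATGGC, the core bound by YY1. No motif contains another, but CCGGAAG ends and AAGATGGC begins with AAG, so these can overlap.
MRPL41: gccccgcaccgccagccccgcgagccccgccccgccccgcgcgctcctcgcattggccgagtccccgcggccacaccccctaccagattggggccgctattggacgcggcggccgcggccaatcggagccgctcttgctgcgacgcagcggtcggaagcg
MRPL36: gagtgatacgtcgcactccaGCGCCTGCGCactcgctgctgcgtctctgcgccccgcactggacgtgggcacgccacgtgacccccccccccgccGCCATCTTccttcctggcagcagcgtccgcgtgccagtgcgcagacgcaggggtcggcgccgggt
MRPL51: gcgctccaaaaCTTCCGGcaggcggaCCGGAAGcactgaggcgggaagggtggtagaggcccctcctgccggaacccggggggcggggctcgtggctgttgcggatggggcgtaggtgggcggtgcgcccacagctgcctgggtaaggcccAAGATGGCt
MRPS15: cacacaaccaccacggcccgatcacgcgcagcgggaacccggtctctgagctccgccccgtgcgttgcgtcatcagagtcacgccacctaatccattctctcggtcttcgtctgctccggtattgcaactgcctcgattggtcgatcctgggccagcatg
MRPL22: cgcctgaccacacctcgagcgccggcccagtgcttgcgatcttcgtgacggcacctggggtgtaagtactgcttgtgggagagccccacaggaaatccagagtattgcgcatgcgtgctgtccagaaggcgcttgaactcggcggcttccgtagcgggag
The windows lie at chr9:137551749-137551908 on the plus strand (MRPL41), chr5:1799808-1799967 on the minus strand (MRPL36), chr12:6493233-6493392 on the minus strand (MRPL51), chr1:36464355-36464514 on the minus strand (MRPS15) and chr5:154940943-154941102 on the plus strand (MRPL22). Those of MRPL41, MRPL36 and MRPL51 lie wholly inside the bounds that GENCODE 29 gives the gene, where a transcript with an earlier start is annotated. The MRPL51 stretch holds 2 matches to CCGGAAG and 1 to AAGATGGC, and the MRPL36 stretch holds 1 match to the NRF1 core and 1 to AAGATGGC. No match was found in the stretches of MRPL41, MRPS15 and MRPL22, which says only that these letters are not there.

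In the longer windows of 300 bases (250 before the start and 50 after it), AAGATGGC was present in 27.1% of the members' promoters, against 4.57% of 16425 promoters of tested genes and 2.89% of all 35116 promoters. CCGGAAG was present in 38.8% of the members' promoters, against 16.4% and 10.3%. The share with the NRF1 core was 11.8%, against 9.90% and 5.78%. Between the subunits the shares were 26.9% (large) and 27.3% (small) for AAGATGGC, 36.5% and 42.4% for CCGGAAG, and 15.4% and 6.06% for the NRF1 core. The NRF1 shares rest on 8 of 52 windows (42 genes) and 2 of 33 windows (27 genes). Differences between the subunits in these shares were not tested. These are letter matches, not sites shown to be bound.

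Counts on genes ranged from 22252686 to 24979081 per library. Together the members held 0.725% and 0.712% of gene counts with PBS and 0.702% and 0.695% with nanoparticles (replicates 1 and 2 in that order throughout), so both nanoparticle libraries lay below both PBS libraries. The large subunit held 0.429% and 0.421% against 0.414% and 0.411%, and the small subunit 0.297% and 0.290% against 0.288% and 0.284%. For the small subunit, the 95% Wilson intervals of PBS replicate 2 (0.288 to 0.293%) and nanoparticle replicate 1 (0.286 to 0.290%) overlapped. These intervals cover counting error only. In bulk RNA, fewer cells carrying a transcript and less of it per cell cannot be told apart. With 2 libraries against 2, an exact two-sided permutation test of one such share cannot go below p = 0.33.

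Levels are given as CPM, counts scaled to library size. Of 22 markers of cell identity, KRT8, KRT18 and VIM had a mean of at least 1 CPM over the 4 libraries. These 3 fell slightly, with log2 fold changes of -0.11, -0.16 and -0.092 (edgeR adjusted p = 0.0240, 0.000526 and 0.0137). With each library's length trend removed, only KRT18 passed (edgeR adjusted p = 0.133, 0.0152 and 0.189 in the same order). Lung epithelial markers summed to between 0.964 and 1.35 CPM, with 3 of 6 at 0 in every library, and leukocyte and endothelial markers to at most 0.281 and 0.759 CPM.

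Per kilobase of transcript, the members spanned a wide range. RPKM here is CPM per kilobase of the principal transcript, averaged over the 4 libraries. Where several annotated transcripts ranked equally, the longest was used, and it need not be the one these cells express. MRPL42, given 15582 bases, came to 7.37 RPKM from a mean of 115 CPM. The highest large-subunit levels were those of MRPL51 (245 RPKM) and MRPL18 (189 RPKM), and the highest small-subunit levels those of MRPS18B (164 RPKM) and MRPS15 (150 RPKM). MRPL3, which lies near the peptidyl transferase centre, stood at 146 RPKM. The lowest were MRPL53 (no count in any library) and MRPL38 (0.859 RPKM) in the large subunit, and MRPS24 (0.425 RPKM) and MRPS17 (4.76 RPKM) in the small subunit. The medians of the subunits were close, at 55.2 RPKM over 49 large-subunit and 53.4 RPKM over 29 small-subunit genes.

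The 4 genes with these lowest levels were among those that share exons with another gene on the same strand. In 10 members over 10% of the principal transcript was shared in this way, and their median level was 9.52 RPKM (range 0 to 76.8), against 57.3 RPKM (3.20 to 245) for the other 68. The shared part was 85.7% in MRPS24, 71.1% in MRPL46, 68.2% in MRPL12 and 67.9% in MRPL38. MRPL53, with 0 counts, shares 52.3% with CCDC142, which had between 422 and 538 counts. A count of 0 allows up to 3 counts, or 0.135 CPM in the shallowest library, but only of reads assigned to this gene alone. The part that reads shared between genes play in these low levels was not tested, and the RNA level of these 10 genes is uncertain. On the opposite strand, 21 members share bases with another gene. None of the 4 genes that passed was among the 10.

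**Figure D1:**
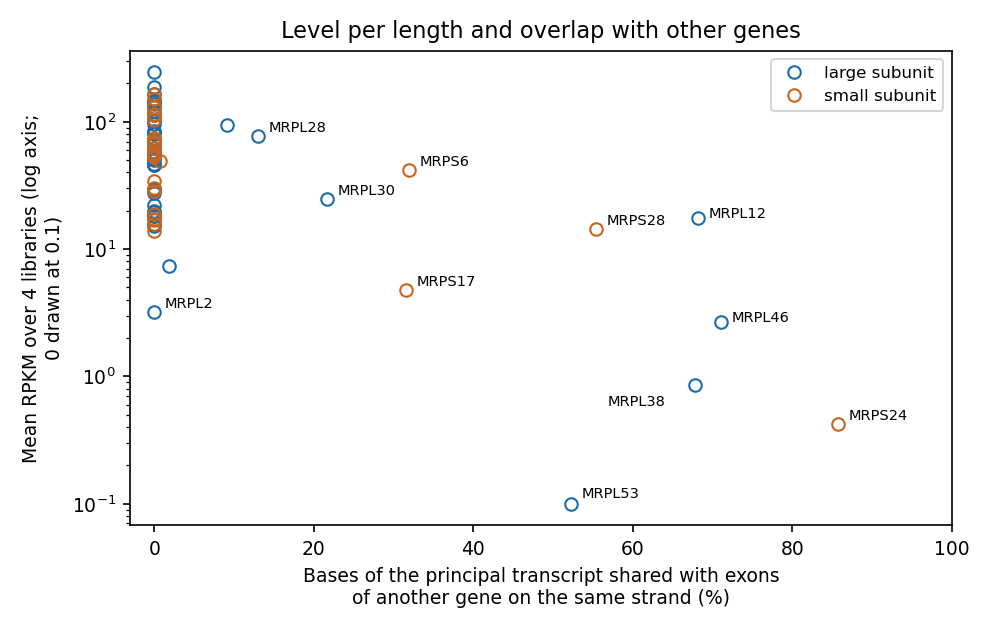
Mean RPKM over the 4 libraries (log axis, with 0 drawn at 0.1) against the percentage of the principal transcript shared with exons of another gene on the same strand, 1 point per gene. The 10 labelled genes above 10% have a median of 9.52 RPKM and the other 68 a median of 57.3 RPKM; MRPL2, at 3.20 RPKM, is low without such an overlap.

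Pseudogenes of these genes drew few reads. The 79 pseudogene rows named after members summed to between 10 and 17 counts per library, and 69 of them were at 0 throughout, while the members themselves held between 159799 and 175433 counts.

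Whether treatment changed each gene was tested with edgeR's quasi-likelihood test over all 15778 genes with enough counts, and a gene passed at a Benjamini-Hochberg adjusted p under 0.05, as 2.58% of tested genes did in either direction. Of the members, 48 large-subunit and 28 small-subunit genes were tested, and MRPL53 and MRPS24 had too few counts. Passing in the direction of lower RNA were 4 of 48 large-subunit genes (8.33%) and 0 of 28 small-subunit genes, against 0.83% of all tested genes. In the direction of higher RNA none passed, against 1.75% of all tested genes. At an unadjusted p under 0.05, 10 large-subunit and 6 small-subunit genes were lower and none was higher, against 7.61% lower and 9.18% higher over all tested genes. The difference between the subunits was not tested.

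MRPL41, a mitochondrion-specific protein of the large subunit that is also known as a partner of the cell death regulator BCL2, measured 108.5 and 106.1 CPM in the PBS libraries and 96.4 and 91.9 CPM in the nanoparticle libraries. Both nanoparticle values lay below both PBS values. Its log2 fold change was -0.19 ± 0.039 (± standard error, here and after, edgeR adjusted p = 0.0108). These standard errors were computed back from the fold change and edgeR's test statistic, so they hold the same information as the unadjusted p. The gene lies at chr9:137551199-137552555 (GENCODE 29, GRCh38).

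MRPL36, the counterpart of a small zinc-binding protein of the bacterial large subunit, measured 107.1 and 109.8 CPM with PBS and 96.0 and 97.8 CPM with nanoparticles. The groups did not overlap, and the log2 fold change was -0.16 ± 0.037 (edgeR adjusted p = 0.0228). The gene lies at chr5:1798386-1801366.

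MRPL51, which has no bacterial counterpart and had the highest level of all members, measured 315.3 and 314.3 CPM with PBS and 290.3 and 288.2 CPM with nanoparticles. The groups stood further apart than their replicates, with a log2 fold change of -0.12 ± 0.030 (edgeR adjusted p = 0.0296). The gene lies at chr12:6491886-6493841, and 19.7% of its principal transcript shares bases with a gene on the opposite strand.

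MRPL15, the counterpart of bacterial L15, measured 166.3 and 166.5 CPM with PBS and 154.3 and 149.9 CPM with nanoparticles. Here too the groups did not overlap. The log2 fold change was -0.13 ± 0.034 (edgeR adjusted p = 0.0455), and the gene lies at chr8:54135210-54147901.

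Just outside the threshold were MRPS15, the counterpart of the rRNA-binding bacterial S15, and MRPL34, the counterpart of bacterial L34. MRPS15 measured 155.1 and 160.9 CPM with PBS and 146.7 and 142.7 CPM with nanoparticles (log2 -0.13 ± 0.035, edgeR adjusted p = 0.0617). MRPL34 measured 99.7 and 108.0 CPM with PBS and 96.4 and 92.5 CPM with nanoparticles (log2 -0.14 ± 0.042, edgeR adjusted p = 0.0930). In both genes the nanoparticle libraries lay below the PBS libraries, and in MRPL34 the PBS replicates differed by more than the distance between the groups' nearest libraries.

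**Figure D2:**
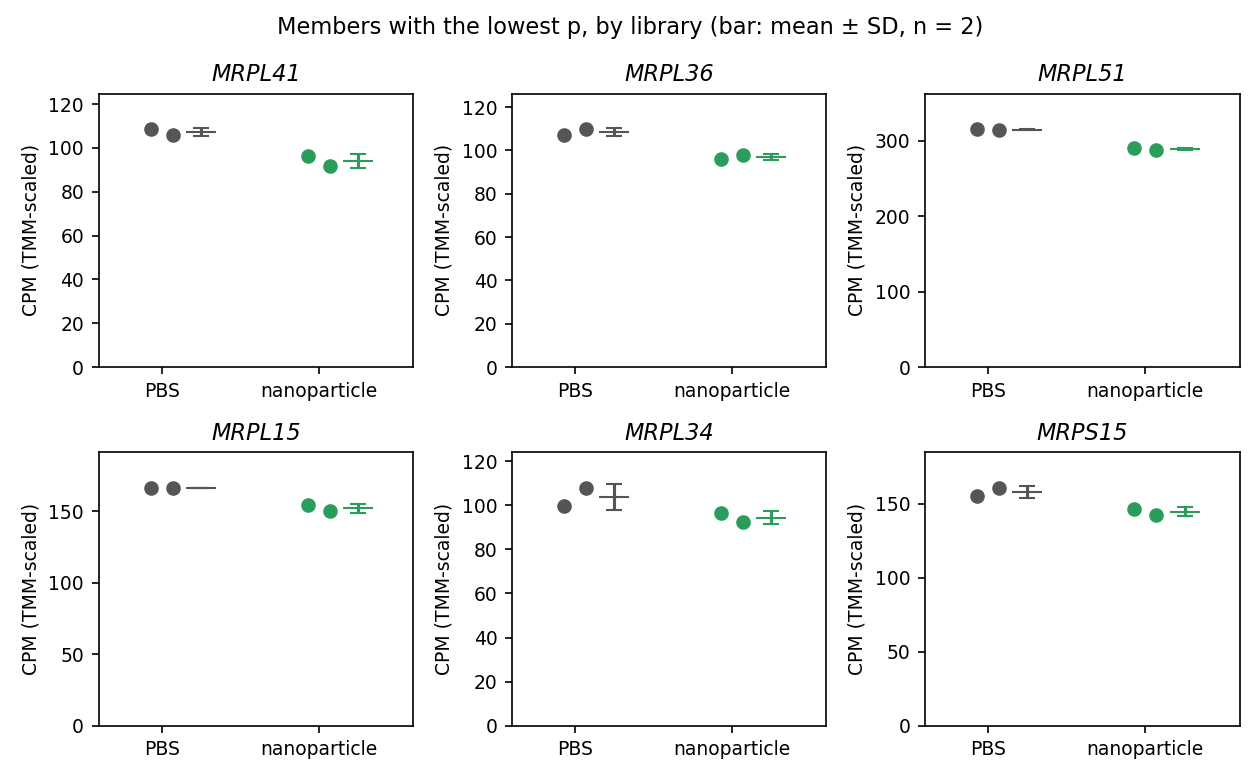
TMM-scaled CPM (linear axes from 0) of the 6 members with the lowest p, 1 point per library, with mean ± SD (n = 2) beside the points. In each panel both nanoparticle libraries lie below both PBS libraries, and the step is small beside the level, as for MRPL51 with 315.3 and 314.3 against 290.3 and 288.2 CPM.

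The 4 calls depended on the libraries and on the tool. With any 1 library left out most of these calls were lost, but fewer of all tested genes passed as well. Such a fit leaves 1 group with a single sample, so the loss cannot be read as particular to these 4 genes. Over all 15 alternatives the log2 fold changes ran from -0.22 to -0.043 (MRPL41) and -0.18 to -0.089 (MRPL36). For MRPL51 they ran from -0.13 to -0.066 and for MRPL15 from -0.15 to -0.071. With DESeq2, which called 0.57% of all tested genes, none of the 76 members passed, and the adjusted p-values of the 4 genes were 0.106 (MRPL41), 0.225 (MRPL36), 0.103 (MRPL51) and 0.292 (MRPL15); at an unadjusted p under 0.05, DESeq2 gave 5 large-subunit genes and 1 small-subunit gene, against 5.97% of all tested genes. With limma-voom 4 large-subunit and 0 small-subunit genes passed, against 2.69% of all tested genes.

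Next by p in the large subunit came MRPL11, which forms the base of the factor-binding stalk (log2 -0.10, edgeR adjusted p = 0.155), and MRPL52 (log2 -0.10, edgeR adjusted p = 0.194). MRPL37, a mitochondrion-specific protein picked for its role, followed (log2 -0.075, edgeR adjusted p = 0.228). MRPL11 measured 120.3 and 118.3 CPM with PBS and 112.0 and 110.8 CPM with nanoparticles, and MRPL37 218.3 and 220.9 CPM against 207.4 and 209.5 CPM. In all 3 genes both nanoparticle libraries lay below both PBS libraries, and none of them passed.

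Genes picked for their role in the large subunit did not pass. MRPL3 measured 246.0 and 249.5 CPM with PBS and 249.7 and 254.2 CPM with nanoparticles, a log2 fold change of 0.024 ± 0.031. MRPL12, the stalk protein that recruits translation factors, had a log2 fold change of -0.082 ± 0.086. For MRPL45, which sits near the exit of the nascent chain and the inner membrane, it was -0.054 ± 0.042. MRPL44, which has a ribonuclease III fold, had -0.023 ± 0.044, and MRPL58, a peptidyl-tRNA hydrolase that releases stalled chains, -0.013 ± 0.057. MRPL18, named for its high level, had -0.040 ± 0.035. In these 6 genes the estimate was under 2 standard errors from 0.

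The largest log2 fold changes above 0 in the large subunit were 0.21 for MRPL38 and 0.071 for MRPL49. MRPL38 rested on 30 to 49 counts per library and had a standard error of 0.23. MRPL49 measured 96.2 and 104.6 CPM with PBS and 108.1 and 102.9 CPM with nanoparticles, so its groups overlapped. The lowest value of all, -0.23 for MRPL2, rested on 116 to 126 counts and had a standard error of 0.13. At such counts a change of the size seen in the 4 genes was not detectable.

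In the small subunit the smallest p-values after MRPS15 belonged to MRPS5, MRPS36, MRPS6, MRPS35 and MRPS12, with log2 fold changes from -0.13 to -0.070. MRPS12, part of the decoding centre, measured 164.1 and 164.3 CPM with PBS and 159.2 and 153.2 CPM with nanoparticles (log2 -0.072, edgeR adjusted p = 0.295). MRPS5 measured 131.5 and 122.7 CPM with PBS and 118.4 CPM in both nanoparticle libraries (log2 -0.10, edgeR adjusted p = 0.172). MRPS36, which has since been described as a part of the oxoglutarate dehydrogenase complex, measured 36.9 and 39.4 CPM against 35.1 and 34.7 CPM (log2 -0.13, edgeR adjusted p = 0.247). MRPS6 had -0.12 and MRPS35 -0.070. In all 5 genes the nanoparticle libraries lay below the PBS libraries.

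MRPS22, in which inherited mutations cause mitochondrial disease, had a log2 fold change of -0.058 ± 0.041, and MRPS2, the counterpart of bacterial S2, -0.033 ± 0.033. MRPS27, a pentatricopeptide repeat protein that binds RNA, stood at -0.012 ± 0.033, and MRPS17 at -0.043 ± 0.10. The largest values above 0 were 0.060 for MRPS25 and 0.030 for MRPS30.

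The small-subunit symbols include 3 counterparts of bacterial S18, at 164 (MRPS18B), 71.2 (MRPS18A) and 30.2 RPKM (MRPS18C). None of them passed, and whether their responses differ was not tested. MRPS18B measured 258.0 and 253.0 CPM with PBS and 252.8 and 243.8 CPM with nanoparticles (log2 -0.041 ± 0.032). MRPS18A stood between 75.0 and 76.9 CPM (log2 0.015 ± 0.041) and MRPS18C between 48.1 and 51.8 CPM (log2 0.029 ± 0.051). MRPS18A and MRPS30 carry small-subunit symbols but sit in the large subunit of the assembled ribosome. With both counted there, the medians were -0.040 (large) and -0.046 (small) and the numbers that passed stayed at 4 and 0.

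**Figure D3:**
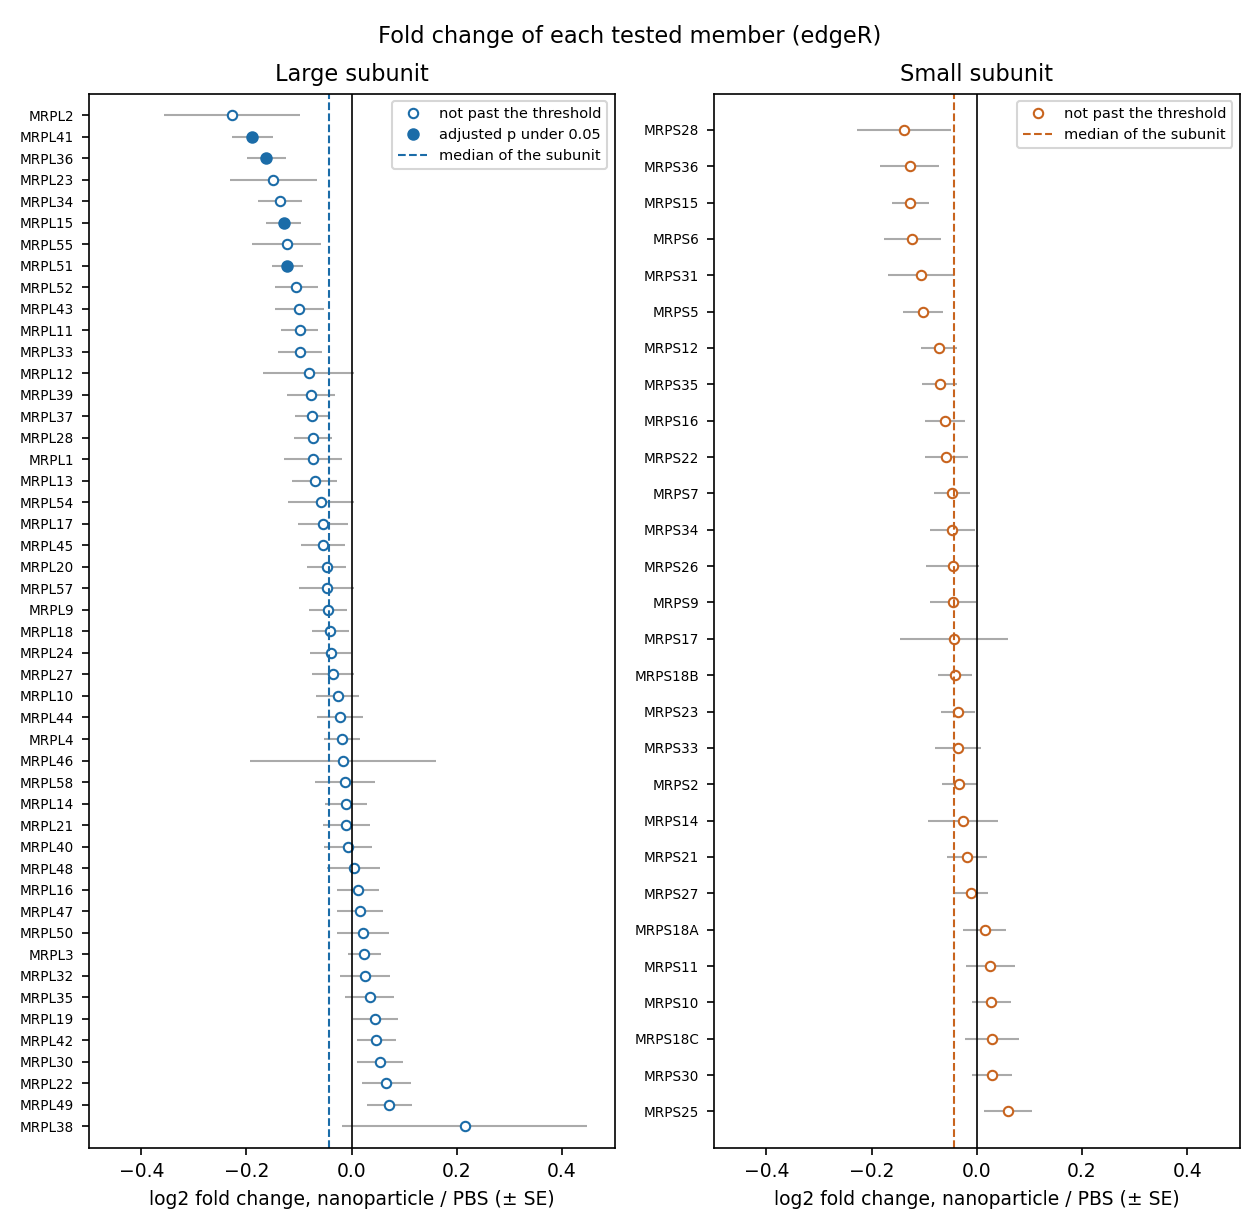
Log2 fold change, nanoparticle over PBS, of each tested member, shown as points. Bars are ± standard error computed back from edgeR's test statistic. Filled points mark the 4 genes under the adjusted threshold, and the median of each subunit is dashed. Values run from -0.23 to 0.21 in the large subunit and from -0.14 to 0.060 in the small subunit, and both medians lie just below 0.

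Over the list, 35 of 48 large-subunit genes (72.9%) and 22 of 28 small-subunit genes (78.6%) had a log2 fold change below 0, against 49.8% of all tested genes. Both nanoparticle libraries lay below both PBS libraries in 18 large-subunit (37.5%) and 12 small-subunit genes (42.9%), against 23.2% of all tested genes, and above them in 5 and 1, against 23.7%. The median over all tested genes was 0.00056.

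The step between the groups was not much larger than the step between the PBS replicates. Each gene's log2(CPM + 0.5) was set against its mean over the 4 libraries, and the median over large-subunit genes was 0.036 in PBS replicate 1, -0.0023 in PBS replicate 2, -0.0076 in nanoparticle replicate 1 and -0.035 in nanoparticle replicate 2. The small-subunit medians were 0.033, 0.0065, -0.0096 and -0.036. PBS replicate 2 lay below PBS replicate 1 by a median of -0.031 (large) and -0.028 (small), while the nanoparticle group lay below the PBS group by -0.043 in both subunits. Between the nearest libraries, nanoparticle replicate 1 and PBS replicate 2, the median differences were -0.0048 in the large subunit, with 24 of 48 genes lower, and -0.020 in the small subunit, with 18 of 28 lower. Between the farthest, nanoparticle replicate 2 and PBS replicate 1, they were -0.074, with 38 of 48 lower, and -0.067, with 22 of 28 lower. Without PBS replicate 1 the large-subunit median was -0.015, and without nanoparticle replicate 2 the medians were -0.025 (large) and -0.020 (small).

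**Figure D4:**
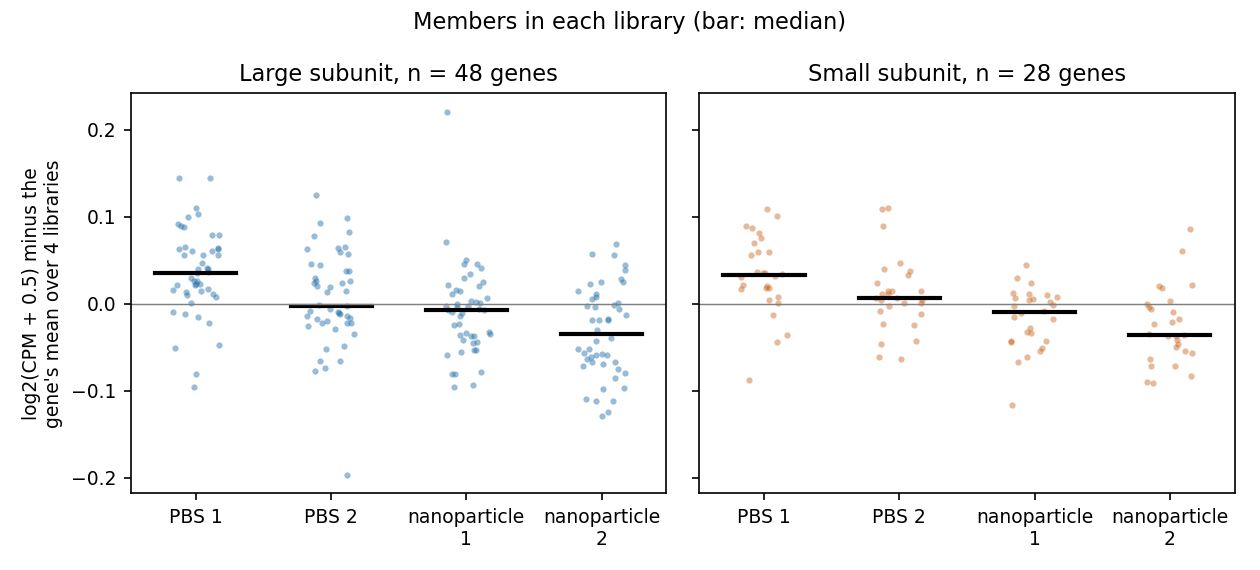
Log2(CPM + 0.5) of each tested member minus its mean over the 4 libraries, 1 point per gene, for 48 large-subunit and 28 small-subunit genes, with the median of each library as a bar. PBS replicate 1 is highest (0.036 and 0.033) and nanoparticle replicate 2 lowest (-0.035 and -0.036), and the medians of PBS replicate 2 and nanoparticle replicate 1 lie between them and close together.

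The fold changes followed transcript length. The members are short, with a median principal transcript of 1279 bases (large) and 1593.5 bases (small) among tested genes, against 2856 bases over all tested genes. These lengths are annotated ones and were not measured in these cells. Across genes, Spearman's correlation of length with log2 fold change was 0.462 over 48 large-subunit genes, 0.580 over 28 small-subunit genes and 0.419 over 11078 genes above 5 CPM. Genes of 1 library share its depth and preparation, so these values are descriptions.

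All 14 tested members under 1000 bases had a log2 fold change below 0, with a median of -0.053, and the median of all genes of that length was -0.070. Between 1000 and 1500 bases 23 of 27 members were below 0, with a median of -0.072 against -0.051 for all genes, and 3 of the 4 genes that passed were in this class. Between 1500 and 2000 bases the medians were -0.043 and -0.037. At 2000 bases and above 6 of 16 members were below 0, with a median of 0.027 against 0.018 for all genes. MRPL36 was the 1 gene under 1000 bases that passed.

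When each library's length trend was taken out as an offset, the medians were 0.016 (large) and 0.0016 (small), and no member passed, against 1.44% of all tested genes; 6 large-subunit genes and 1 small-subunit gene had an unadjusted p under 0.05, against 13.5%. The log2 fold changes of the 4 genes became -0.13 for MRPL41 (edgeR adjusted p = 0.0769), -0.089 for MRPL36 (0.290), -0.066 for MRPL51 (0.329) and -0.071 for MRPL15 (0.356). With length and GC content removed together, MRPL41 stood at -0.043 (edgeR adjusted p = 0.651) and again no member passed, against 1.53%. With length alone removed, both nanoparticle libraries lay below both PBS libraries in 9 of 48 large-subunit and 7 of 28 small-subunit genes, near the 20.5% of all tested genes at that setting. Whether the length trend comes from the treatment or from library preparation was not tested.

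**Figure D5:**
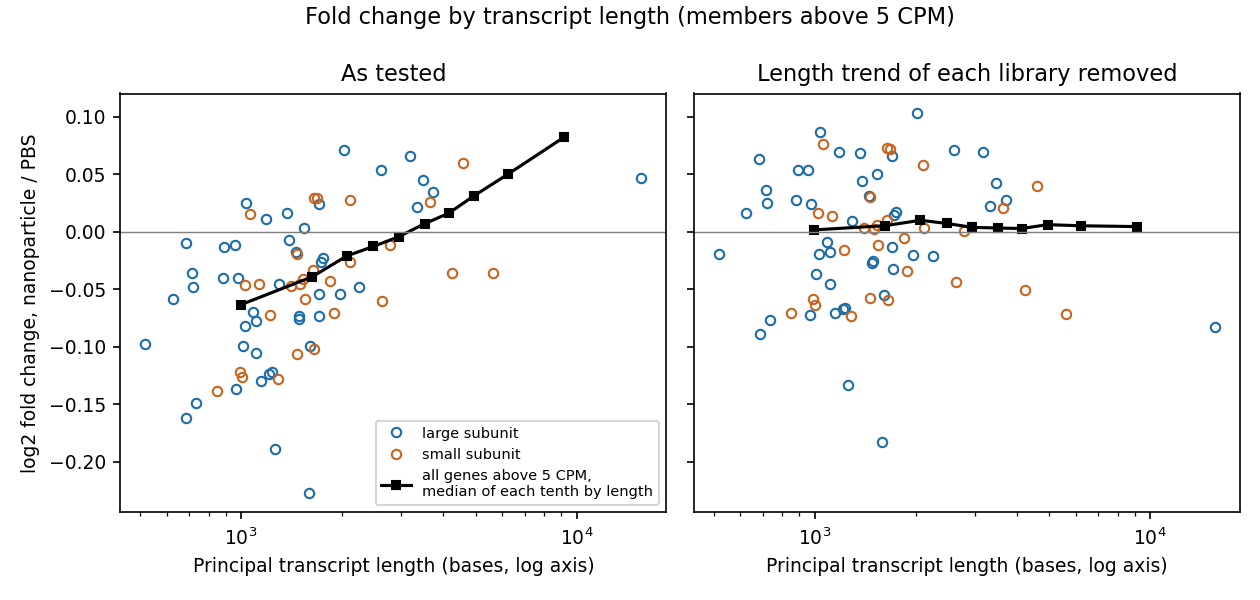
Log2 fold change, nanoparticle over PBS, against principal transcript length (bases, log axis) for members above 5 CPM, as tested and after removal of each library's length trend; black squares are medians of all genes above 5 CPM in 10 equal groups by length. Before removal the squares climb from -0.063 to 0.082 and the members follow them, and after removal both lie around 0.

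Other parts of the mitochondrial translation system were read from lists of genes. The 5 subunits with other symbols had no gene past the threshold (median -0.095): GADD45GIP1 had -0.11 (edgeR adjusted p = 0.0991), AURKAIP1 -0.10, CHCHD1 -0.095, DAP3 -0.033 and PTCD3 0.027. None passed among 28 tested assembly factors (median -0.016) or 17 translation factors (median -0.011). The next list held 22 mitochondrial aminoacyl-tRNA synthetases and amidotransferase subunits, some of which also serve the cytosol. None of these passed (median 0.0059). Nor did any of 20 genes of mitochondrial transcription and RNA processing (median 0.014) or 8 regulators of mitochondrial gene transcription (median 0.024). At an unadjusted p under 0.05, 2, 1, 1 and 1 genes of the first 4 of these lists were lower. In each of the last 2 lists 1 gene was higher. Of all tested genes 7.61% were lower and 9.18% higher at that cutoff, and 2.58% passed the adjusted threshold in either direction.

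The RNAs that the mitochondrial ribosome contains or translates are encoded in mitochondrial DNA and had log2 fold changes mostly above 0. The small and large mitochondrial rRNAs, MT-RNR1 and MT-RNR2, both had a log2 fold change of 0.23 and did not pass (edgeR adjusted p = 0.178 and 0.200). Of the 13 mitochondrially encoded mRNAs, 2 rose and none fell, against 1.75% and 0.83% of all tested genes, and the median was 0.27. Both nanoparticle libraries lay above both PBS libraries in 1 of the 13, against 23.7% of all tested genes. MT-ND5, a subunit of complex I, measured 130.6 and 182.5 CPM with PBS and 179.3 and 254.8 CPM with nanoparticles (log2 0.47, edgeR adjusted p = 0.0302), so its groups overlapped. MT-ND6, the one complex I subunit encoded on the light strand, measured 9.52 and 11.04 CPM against 15.9 and 30.3 CPM (log2 1.17, edgeR adjusted p = 0.00165). The mitochondrial mRNAs together held 0.272% and 0.381% of gene counts with PBS and 0.328% and 0.454% with nanoparticles, a range in which replicates of a group differed more than the groups did. Polyadenylated RNA was selected, so values of mitochondrial rRNAs and mRNAs, MT-ND6 among them, cover only what that selection keeps.

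The cytosolic ribosome and the respiratory chain were set beside the mitochondrial ribosome. Of 79 tested cytosolic ribosomal protein genes 12 fell and none rose, with a median of -0.077, and of 78 tested nuclear genes of oxidative phosphorylation 2 fell (ATP5MF and COX5A) and none rose, with a median of -0.071; over all tested genes 0.83% fell. Log2 fold changes below 0 were found in 77 and 72 of these genes, against 57 of 76 mitochondrial ribosomal protein genes. With length removed, 5 cytosolic ribosomal protein genes passed as lower, 1 of them among the 12, and no oxidative phosphorylation gene passed (edgeR adjusted p = 0.291 for ATP5MF and 0.227 for COX5A), against 1.44% of all tested genes in either direction. The medians at that setting were -0.015 and -0.029, against 0.0033 for the mitochondrial ribosomal protein genes. Whether the families differ from each other was not tested.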

How the data were processed

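Polyadenylated RNA of 4 H1299 libraries was counted per gene. The authors deposited raw counts of reads for each Ensembl gene, 1 file per library, without normalization. GRCh38, HTSeq 2.0.2, Picard, STAR 2.7.6a, cutadapt 3.5 and bcl2fastq 2.20 are named, per the submitters' processing notes. Not given in the sources used here were the annotation release, the strand setting and the treatment of reads shared by several genes. A stranded mRNA kit was used on 300 ng of RNA, per the labels' protocols. Reads given to no gene, 13.7 to 14.8% per library, were left out.

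Counts were filtered (filterByExpr), scaled by TMM and tested two-sided with edgeR 4.0.16 (R 4.3.3), with Benjamini-Hochberg adjustment over 15778 genes. The biological coefficient of variation was 2.46%. Replicates differed beyond sampling noise (chi-square per degree of freedom 1.86 for PBS and 2.05 for nanoparticles), so none was treated as a copy. Gene type, principal transcript length, coordinates and overlaps came from GENCODE 29 on GRCh38, and promoters from RefSeq (GRCh38.p14). Length and GC trends were splines with 4 degrees of freedom over genes above 5 CPM, fitted per library (MASS 7.3.60.0.1). The procedure was also run on simulated counts with known changes, with and without a length trend. Its error rates are not given here, so nothing is concluded from that run. The alternatives were other scalings and filters, DESeq2 1.42.0, limma-voom (limma 3.58.1), a replicate block, length and GC offsets, omission of mitochondrially encoded genes, subunits by structure, and omission of each library. Omission of members with same-strand overlap was added after seeing the data. Figures used matplotlib 3.10.9.

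The genes and lists were chosen with earlier results of these data known. Members named in the text were those past the threshold, in each subunit the 6 with the smallest p, the 2 with the largest log2 fold change and the 2 highest and 2 lowest by RPKM, and 16 picked for their role. In other lists up to 4 genes past the threshold were named. MRPL2, MRPL22, MRPL42, MRPL46, MRPL52, the subunits with other symbols and the genes sharing exons were named outside this rule, after their values were seen.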

Additional observations from a re-analysis of the deposited data

How the results depend on the processing

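Over all tested genes, 407 passed as tested (276 higher and 131 lower), 223 higher and 190 lower with upper-quartile scaling, 0 with no low-count filter (2297 at an unadjusted p under 0.05), 90 with DESeq2, 227 with length removed, 241 with length and GC content removed, 759 with the replicate block, and 0 to 200 with 1 library left out. Of the large-subunit genes 4 passed as tested and with the other scalings, the filter at a mean of 50 counts, limma-voom, subunits by structure, mitochondrially encoded genes left out or same-strand overlaps left out; 0 passed with no low-count filter, DESeq2, length removed or length and GC content removed, 5 with the replicate block (MRPL34 added), and 0 to 1 with 1 library left out. Of the small-subunit genes 0 passed as tested, and 1, MRPS15, passed with upper-quartile scaling, a mean of 50 counts, the replicate block or mitochondrially encoded genes left out. The correlation of replicate 1 minus replicate 2 between the groups was 0.0348 over 11104 genes. In both groups, however, the members were lower in replicate 2. The median steps with PBS and with nanoparticles were -0.031 and -0.018 (large) and -0.028 and -0.022 (small). Mitochondrially encoded mRNAs held a larger share in replicate 2 of both groups (0.272% to 0.381% and 0.328% to 0.454%). Whether equal replicate numbers mark a shared preparation for these genes was not tested. The large-subunit median was 0.016 with length removed, 0.0070 with length and GC content removed and -0.067 to -0.015 with 1 library left out; the small-subunit median was 0.0016, -0.0079 and -0.060 to -0.020. Both nanoparticle libraries lay below both PBS libraries in 9 (length removed) and 10 (length and GC content removed) large-subunit genes, against 18 as tested, and in 7 small-subunit genes with length removed, against 12; the shares over all tested genes were 20.5%, 20.7% and, as tested, 23.2%. With length removed the sign turned for MRPL18 (0.024), MRPL44 (0.018), MRPL58 (0.054), MRPS18B (0.0058), MRPS2 (0.010) and MRPS27 (0.00069). With length and GC content removed it turned for MRPL12 (0.013), MRPL18 (0.020), MRPL44 (0.0068), MRPL58 (0.052), MRPS18B (0.0045) and MRPS2 (0.026). With 1 library left out it turned for MRPL12 (-0.19 to 0.028), MRPL44 (-0.076 to 0.030), MRPL58 (-0.095 to 0.071), MRPS18A (-0.0018 to 0.032), MRPS18C (-0.018 to 0.076) and MRPS27 (-0.027 to 0.00050). The cause of these turns was not tested. Leaving out a library leaves 1 group with 1 sample, assumed to vary like the other group. Depth limited MRPL38, MRPL46, MRPL2 and MRPS17, whose standard errors exceed 0.1.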

Other observations

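Several non-coding genes are named for their position beside members. MRPL20-AS1 was expressed at 32.6 and 32.4 CPM with PBS and 33.1 and 32.5 CPM with nanoparticles, with a log2 fold change of 0.013 ± 0.057 (standard error). MRPL20-DT, transcribed away from the same gene, measured 4.72 and 6.21 CPM with PBS and 3.96 and 4.70 CPM with nanoparticles (log2 -0.34 ± 0.15, edgeR adjusted p = 0.257), so its nearest libraries were almost equal and it did not pass. MRPS30-DT rested on 27 to 41 counts per library (log2 -0.34 ± 0.24). MRPL23-AS1 and MRPS35-DT had no count in any library.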
